A study of Mus musculus with 10 samples.

Results

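The samples described here are the 2 HE1 and 2 HE2 libraries of a serum differentiation of mouse ES cells to blood, which are 4 of the 10 libraries in all. They were chosen by their labels. Both populations are hemogenic endothelium sorted as KIT+ TIE2+ cells. HE1 lacks CD41 on the surface and HE2 carries it, so the comparison of HE2 with HE1 asks which classes of genes change at the start of the endothelial to hematopoietic transition.

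Nuclear RNA was sequenced after depletion of rRNA, with 2 libraries per stage for undifferentiated ES cells, FLK1+ hemangioblast cells (HB), HE1, HE2, and hematopoietic progenitors (HP, KIT+ TIE2− CD41+). The cells of each stage came from the HM-1 ES cell line and so share 1 line. HE1, HE2, and HP cells were sorted from the same kind of culture. Embryoid bodies were grown for 3 d and FLK1+ cells were purified with magnetic beads. By the study's methods these were kept for a further 2.5 d in blast culture, a medium with serum, D4T conditioned medium, VEGF and other factors. No drug or other treatment is named that distinguished the populations, and HE1 and HE2 are defined by the sort. The labels do not say whether HE1 and HE2 libraries came from the same cultures. The total of counts on genes was 24920434 and 26777156 in the HE1 libraries, 33109887 and 32917684 in HE2. The HP libraries held 45097069 and 29592213. A floor of 3 counts corresponds to 0.126 and 0.0991 CPM (TMM-scaled counts relative to the library total) in HE1 and to 0.0914 and 0.0952 CPM in HE2, and covers counting error only. The study calls the replicates biologically independent, while the labels do not say whether they came from separate cultures. The p-values rest on a spread estimated over all 10 libraries, not on that of HE1 and HE2 alone.

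During embryonic development, the first definitive blood cells arise from hemogenic endothelium, a vascular cell type that loses its junctions, rounds up, and turns on the blood programme. RUNX1 is required for this transition, during which CD41, the integrin alpha chain also carried by megakaryocytes and platelets, appears on the surface before the pan-leukocyte antigen CD45. The same cells carry a set of transcription factors often called the heptad, which is shared by endothelium and blood stem cells.

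The labels were checked first against the antigens of the sort and other marker genes. Itga2b (ENSMUSG00000034664, GRCm38 chr11:102453297-102470122, minus strand) encodes CD41 and was at 227 and 127 CPM in the HE1 libraries and at 505 and 469 CPM in HE2. The transcript was thus well above the floor in the CD41-negative population, and both HE2 libraries lay above both HE1 libraries (log2 fold change 1.46 ± 0.25 SE, adjusted p = 0.00921). Kit was at 146 and 73.0 CPM in HE1 and at 230 and 410 CPM in HE2. Tek, which encodes TIE2, was at 564 and 294 CPM in HE1, 285 and 159 CPM in HE2, and 61.5 and 64.2 CPM in HP. For Tek the HE1 and HE2 libraries were separated by a small gap and the difference did not pass the test (log2 fold change −0.95 ± 0.30, adjusted p = 0.0604). Because these antigens defined the populations, their levels check the labels and are not a finding. The endothelial markers Cdh5 and Pecam1 were present in both populations, Cdh5 at 1431 and 798 CPM in HE1 and at 862 and 412 CPM in HE2. Ptprc, which encodes CD45, was at 1.14 and 0.363 CPM in HE1, 9.87 and 18.2 CPM in HE2, and 38.7 and 47.3 CPM in HP, so that HE2 lay between the other populations.

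**Figure D1:**
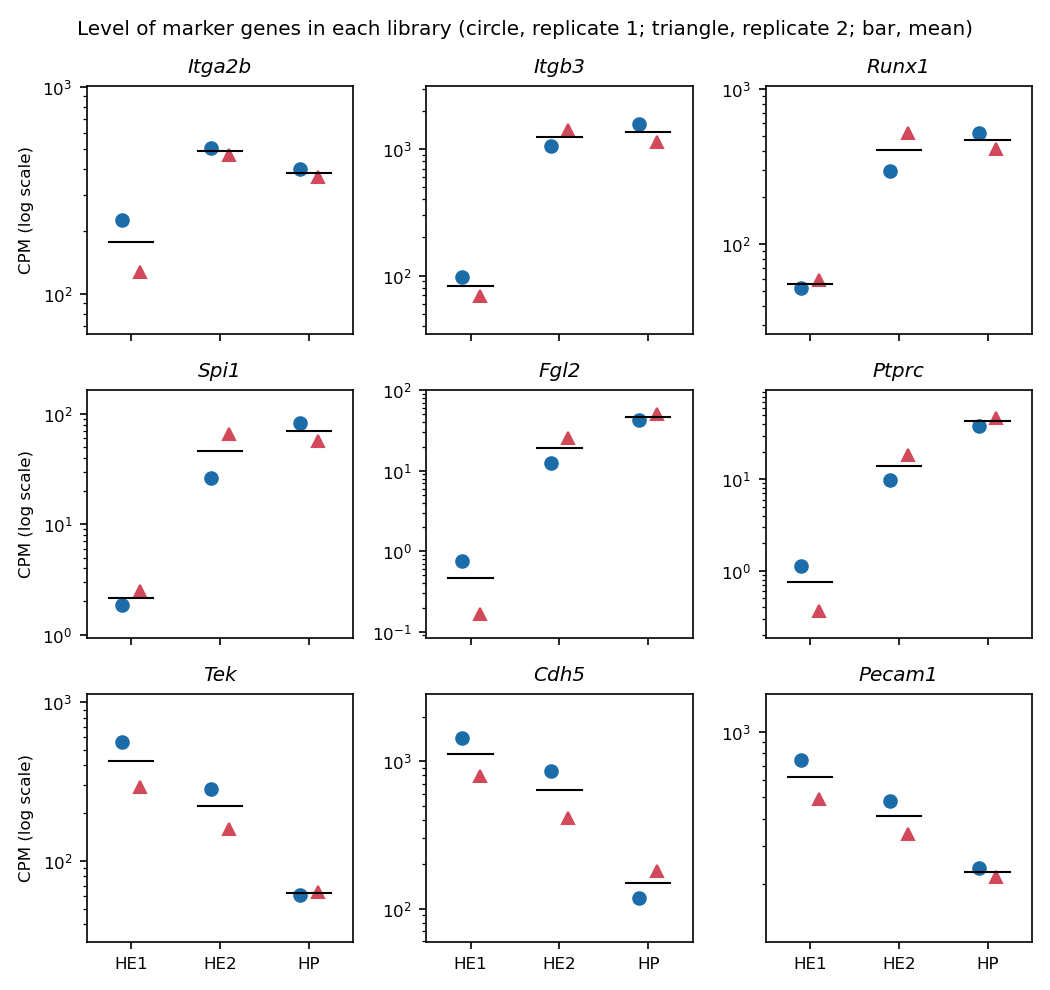
Level of 9 marker genes in each library, in CPM on a log axis, for HE1, HE2, and HP (circle, replicate 1; triangle, replicate 2; bar, mean of the 2 libraries). Itga2b, Itgb3, Runx1, Spi1, Fgl2, and Ptprc sit higher in both HE2 libraries than in both HE1 libraries, while for Cdh5 a library of HE2 (862 CPM) lies above one of HE1 (798 CPM).

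Differences between the libraries of a stage are given before the results. HE1 replicate 2 held more transcripts of 5 lists of cell types outside blood and endothelium (pluripotent, epithelial and endoderm, mesenchymal, cardiac, and neural) than HE1 replicate 1. The 11 pluripotent cell markers summed to 133 CPM in HE1 replicate 2, against 21.8 CPM in HE1 replicate 1, 14.1 and 8.89 CPM in HE2, and 4296 and 4252 CPM in ES cells. Pou5f1, the member with most counts, was at 26.3 CPM in this library and at 2.82 CPM in HE1 replicate 1. Each of the 11 was above the floor in at least 1 of the 4 libraries, and 9 of the 11 were called lower in HE2. Leaving out HE1 replicate 2 left 1 of the 11 called lower, leaving out HE2 replicate 1 left 2, and a replicate block left 5. With HE2 replicate 2 left out or with only the 4 libraries, edgeR called 0, and limma-voom called 0.

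The sum of the epithelial and endoderm markers was 258 and 738 CPM in the HE1 libraries and 328 and 198 CPM in HE2, with Krt8 as the most abundant gene and Ttr and Apoa2 at or under the floor. For the mesenchymal markers, led by Col1a1 with 176 and 671 CPM in HE1, the sums were 427 and 931 CPM in HE1 and 530 and 429 CPM in HE2. The 17 cardiac and smooth muscle markers, led by Acta2, summed to 1027 and 1365 CPM in HE1 and to 833 and 519 CPM in HE2, and 7 of the 17 were called lower in HE2 (3 without HE1 replicate 2 and 1 without HE2 replicate 2). These lists thus stood higher in HE1 replicate 2 than in any other library of HE1 and HE2. The neural list did so too, with 42.9 and 95.2 CPM in HE1 and 34.7 and 27.1 CPM in HE2, Tubb3 as its leading gene, and Dcx at or under the floor. Of 11 tested members in each, 3 mesenchymal, 0 epithelial and endoderm (7 of 13 without HE1 replicate 1), and 2 neural markers were called lower, and 1 neural marker, Elavl4, was called higher. With HE1 replicate 2 left out, edgeR called 0 mesenchymal and 1 neural marker lower and 0 neural markers higher, and with HE2 replicate 2 left out it called 0 mesenchymal markers.

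The HE2 libraries also differed from each other. The endothelial receptor and junction genes summed to 7191 CPM in HE2 replicate 1 and to 4189 CPM in HE2 replicate 2, while Spi1 was at 26.4 and 65.9 CPM in the same libraries. Replicates of HE1 had a Pearson correlation across genes of 0.967, against 0.983 for HE2. Of the tested genes, 21.3% differed at least 2-fold between the libraries of HE1, against 15.5% in HE2. This share was 3.17% in ES, 8.95% in HB, and 13.9% in HP, whose libraries enter the same estimate of the spread. Malat1, a nuclear RNA, made up 0.508% and 0.993% of the counts in HE1 and 0.598% and 0.258% in HE2, so that HE1 replicate 2 and HE2 replicate 2 were the highest and the lowest of the 4. The part of these library differences in each result was not tested as a cause.

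**Figure D2:**
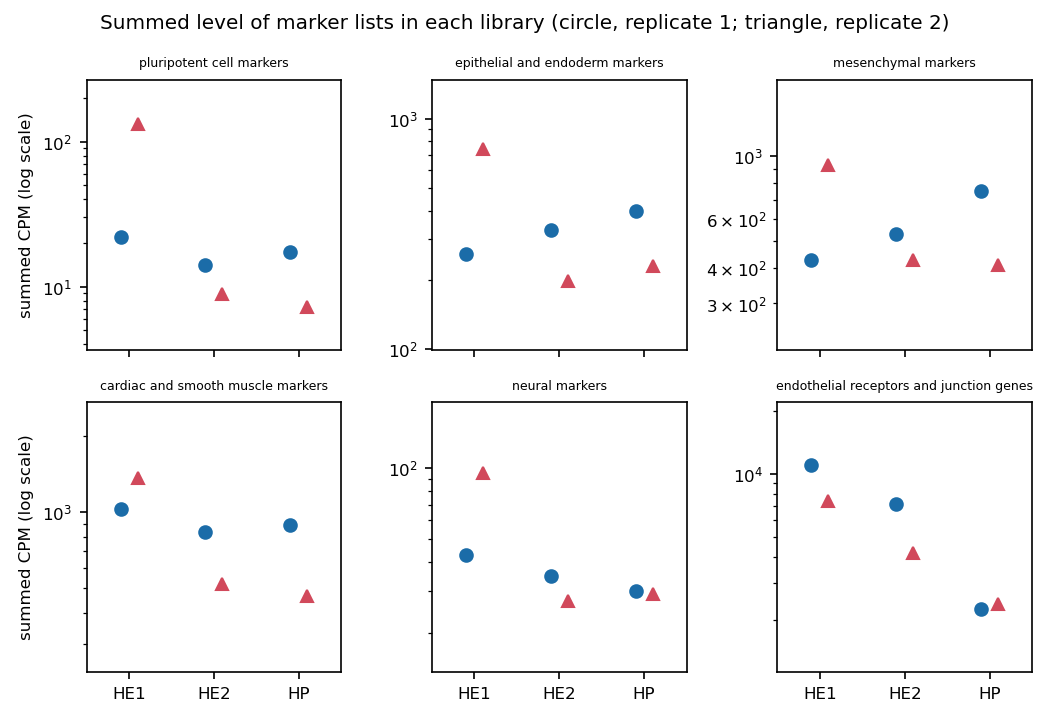
Summed level of 5 lists of markers of other cell types and of the endothelial receptor and junction genes in each library, in CPM on a log axis (circle, replicate 1; triangle, replicate 2). The pluripotent markers reach 133 CPM in HE1 replicate 2 and at most 21.8 CPM in the other HE1 and HE2 libraries.

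Of the tested genes, 737 were higher (3.26%) and 1217 lower (5.39%) in HE2 than in HE1, called at 2-fold or more with an adjusted p under 0.05. The genes that gained included receptors, signalling molecules, and transcription factors of blood cells, and those that lost included endothelial regulators and genes of the TEAD and YAP pathway. With only the 4 libraries of HE1 and HE2 in the fit, 364 genes were higher and 171 lower. The number of higher genes was 368 (1.56%) and of lower genes 260 (1.10%) without HE1 replicate 2. Without HE2 replicate 2 the numbers were 324 and 98, so the excess of lower genes did not hold without either library. Among the 1217 lower genes, HE1 replicate 2 was at least 2-fold above HE1 replicate 1 for 359 and at least 2-fold below for 10, against 3604 and 1214 of all 22596 tested genes (log2 CPM with a prior count). Among the 737 higher genes the numbers were 22 and 124. Of the 737 higher genes 341 were called again without that library, and of the 1217 lower genes 196. These are bulk libraries of sorted cells, in which more cells of a type and more RNA per cell cannot be told apart.

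The study's level of 9 CPM was used to define expressed genes. By that criterion 206 genes (0.912%) were switched on, called higher with a mean under 9 CPM in HE1 and of at least 9 CPM in HE2, and 203 (0.898%) were called lower and switched off. The former included 10 of the pan-leukocyte genes, 8 myeloid effector genes, 7 genes each of the cytokine receptor, megakaryocyte, and erythroid lists, and 6 blood transcription factor genes, with some genes on more than 1 list. Of 33 tested endothelial receptor and junction genes 0 were switched off, near the share of 0.898% over all tested genes. Genes far above 9 CPM in HE1, such as Cdh5, can fall without reaching this level. Of 21 tested endothelial transcription factor genes 2 were switched off. Without HE1 replicate 2 the numbers were 133 and 44, and without HE2 replicate 2 they were 122 and 19.

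The 12 higher genes with the widest gap between the libraries of the populations are named here. This choice favours calls under the alternatives too, so those calls are not separate support. Fgl2 (ENSMUSG00000039899, chr5:21372642-21378374, plus strand), which encodes a secreted fibrinogen-like protein of leukocytes, was at 0.757 and 0.165 CPM in HE1 and at 12.4 and 25.6 CPM in HE2. Its log2 fold change was 5.43 ± 0.53 (adjusted p = 0.000598), and HP reached 43.1 and 50.4 CPM. Il18rap, a subunit of the interleukin 18 receptor, was at 0.505 and 0.264 CPM in HE1 and at 10.8 and 19.7 CPM in HE2. Csf3r, the receptor of the granulocyte growth factor G-CSF, was at 0.799 and 0.561 CPM in HE1 and at 14.8 and 18.1 CPM in HE2. For both genes each HE2 library was above each HE1 library, as the choice by the widest gap requires. F13a1, the A chain of clotting factor XIII, Mmrn1, which encodes a platelet protein, and the chemokine gene Ccl9 also were among the 12, with log2 fold changes of 5.07, 5.09, and 4.67. The others were Traf3ip3 (5.23), Evi2 (5.22), Evi2b (5.17), Ubash3a (4.60), Plek (4.29), and the melanocortin receptor gene Mc5r (5.14). Evi2 and Evi2b share exons, with 98.5% of the exon bases of Evi2b also in Evi2, so that their counts are not separate measurements. All 12 were called under each alternative that was run at a change of at least 2-fold.

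The widest gaps among lower genes were of another kind. Cdh13, a cadherin of the vascular wall, was at 8.16 and 14.8 CPM in HE1 and at 2.07 and 0.603 CPM in HE2. The forkhead gene Foxc2 was at 10.9 and 10.7 CPM in HE1 and at 2.96 and 0.286 CPM in HE2. Pdlim3, an actin-associated protein of muscle, was at 123 and 366 CPM in HE1 and at 32.5 and 7.62 CPM in HE2. In each of these genes the HE2 libraries differed more than 3-fold. The others of the 12 were Rnf165, Ccdc110, Ctsh, Sema3g, Tmem44, B830012L14Rik, Adrb3, Gm45512, and Gm19972, of which B830012L14Rik had the log2 fold change nearest to 0 (−2.24). Pdlim3, Gm45512, and Ccdc110 all lie within chr8:45885461-45944145 on the plus strand. Gm19972 lies inside the gene Unc5b on the same strand. Whether the counts of these genes are separate measurements was not tested. Without HE1 replicate 2, Cdh13, B830012L14Rik, and Adrb3 were called among the 12. For Gm19972 the HE1 libraries were at 8.29 and 59.1 CPM, and its log2 fold change went from −4.26 to −2.24 without HE1 replicate 2 (adjusted p = 0.151).

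Gene classes were then compared by how many tested members were called. Members and lists were chosen with earlier results of these data known, so the shares and their order are a description. Of the 7 heptad factors, 3 were called higher and 0 lower, with a median log2 fold change of 0.83 against −0.08 over all tested genes. Runx1 (ENSMUSG00000022952, chr16:92601466-92826149, minus strand) was at 52.4 and 58.6 CPM in HE1 and at 295 and 519 CPM in HE2. The groups were far apart, with a log2 fold change of 2.87 ± 0.25 (adjusted p = 0.000387), and HP with 523 and 412 CPM overlapped HE2. Lyl1 and Tal1, related helix-loop-helix factors, had log2 fold changes of 2.04 and 1.15, but neither passed the test without HE1 replicate 2 (adjusted p = 0.0599 and 0.0787) or without HE2 replicate 2. Lmo2 was at 58.8 and 37.4 CPM in HE1 and at 87.6 and 83.0 CPM in HE2, a change of less than 2-fold. The other heptad genes were not called. Fli1 was at 236 and 133 CPM in HE1 and at 191 CPM in both HE2 libraries, Erg at 83.4 and 61.1 CPM and then 83.5 and 93.0 CPM, and Gata2 at 93.5 and 53.5 CPM and then 63.5 and 59.1 CPM. Of the 7 genes, 4 thus did not pass the call.

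Of 24 tested blood transcription factor genes, 12 were higher and 0 lower, with a median of 1.05. Spi1 (ENSMUSG00000002111, chr2:91082390-91115756, plus strand), which encodes PU.1, was at 1.85 and 2.48 CPM in HE1 and at 26.4 and 65.9 CPM in HE2. This was the largest log2 fold change of the list (4.40 ± 0.47, adjusted p = 0.000692). The erythroid and megakaryocyte factor gene Nfe2 was at 10.0 and 3.83 CPM in HE1 and at 63.5 and 126 CPM in HE2. Ikzf1, which encodes IKAROS, was at 18.5 and 9.08 CPM in HE1 and at 115 and 261 CPM in HE2. Myb was at 22.6 and 7.13 CPM in HE1 and at 125 and 227 CPM in HE2. In all 4 genes each HE2 library exceeded each HE1 library, and HE2 replicate 2 was the higher of the HE2 libraries. The other higher genes were Gfi1b, Gata1, Ikzf2, Klf1, Cebpb, Bcl11a, Stat5a, and Mef2c. The count was between 9 and 14 when any library of HE1 or HE2 was left out. Not every regulator of blood was among them. Gfi1, a repressor of endothelial genes, was at 11.9 and 8.79 CPM in HE1 and at 14.1 and 12.6 CPM in HE2, and the myeloid factor gene Cebpa at 1.22 and 4.82 CPM and then 2.50 and 3.87 CPM. Irf8 stayed under 2.6 CPM in all 4 libraries and Runx3 under 1.1 CPM. Zfpm1, the member with most counts, was at 337 and 281 CPM in HE1 and at 326 and 380 CPM in HE2 and was not called.

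Among the class lists, chosen with earlier results known, the pan-leukocyte signalling and actin genes had the highest share of calls. These genes encode adaptors, kinases, and regulators of RAC and actin that are found in most white blood cells. Of 34 tested, 29 were higher (85.3%) and 0 lower, with a median log2 fold change of 2.59. Plcg2, the phospholipase with most counts, was at 74.0 and 39.3 CPM in HE1 and at 289 and 467 CPM in HE2. Btk, a tyrosine kinase gene, was at 0.252 and 0.198 CPM in HE1 and at 6.95 and 9.37 CPM in HE2 (log2 fold change 5.17 ± 0.50, adjusted p = 0.000598). Vav1, which encodes an activator of RAC proteins, was at 4.88 and 4.13 CPM in HE1 and at 20.5 and 41.1 CPM in HE2. None of these overlapped between the populations. Rac2, the RAC gene of blood cells, was at 0.294 and 0.264 CPM in HE1 and at 2.56 and 6.76 CPM in HE2. Coro1a, which encodes an actin-binding protein, was at 1.60 and 1.75 CPM in HE1 and at 13.8 and 28.3 CPM in HE2. Rasal3 had 1 count in HE1 replicate 1 and 0 in replicate 2, and was at 4.97 and 7.05 CPM in HE2. For Arhgap15 the HE1 libraries held no count and HE2 was at 0.548 and 0.222 CPM, with a mean 3.42-fold above the mean floor of the HE1 libraries, and its call was lost without HE1 replicate 2 or HE2 replicate 2. The number called was 29 when HE1 replicate 2 was left out, and it lay between 24 and 31 when any library of HE1 or HE2 was left out.

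Cytokine and chemokine receptor genes were called higher in 15 of 32 cases and lower in 1, with a median of 1.47. The 15 include the sort antigen gene Kit, whose level checks the labels and is not a finding. Csf2rb, the shared chain of the receptors of IL-3, IL-5, and GM-CSF, was at 10.3 and 4.92 CPM in HE1 and at 77.4 and 81.3 CPM in HE2. Il21r had no count in HE1 and was at 1.49 and 3.68 CPM in HE2, with a mean 23-fold above the mean floor of the HE1 libraries. Il1rl1, a receptor gene of the interleukin 1 family, had a log2 fold change of 4.96 from 0.210 and 0.132 CPM in HE1. By contrast, Lifr, the receptor of LIF and the member with most counts, fell from 617 and 443 CPM in HE1 to 274 and 168 CPM in HE2 (log2 fold change −1.26 ± 0.27, adjusted p = 0.0200). Its call was lost without HE1 replicate 1, without HE2 replicate 2, and with only the 4 libraries. Il3ra with 15.4 and 15.9 CPM in HE1 and 16.0 and 12 CPM in HE2, and Csf2ra, with 6.69 and 7.40 CPM and then 9.45 and 7.78 CPM, were not called, although they encode the partners of the chain from Csf2rb. Kit (log2 fold change 1.55) was counted among the higher genes but lost the call without HE1 replicate 2 (adjusted p = 0.103) and without HE2 replicate 2. The number of higher genes was 13 to 16 when any library of HE1 or HE2 was left out.

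In the megakaryocyte and platelet list, 16 of 25 tested genes were higher and 0 lower (median 2.17, or 2.02 with genes without a count in HE1 set to their bound). The 16 include Itga2b, whose product CD41 defined HE2, so that its call checks the labels and is not a finding. Itgb3, which encodes the beta chain that pairs with CD41, was at 97.0 and 68.5 CPM in HE1 and at 1065 and 1405 CPM in HE2. The change of Itgb3 (log2 fold change 3.90 ± 0.25, adjusted p = 0.000165) was larger than that of Itga2b itself. The difference between the changes of both genes was not tested. Pf4 and Treml1 had 1 count each in HE1 and stayed at or under 2.01 CPM in HE2, and neither passed the test without HE1 replicate 2. Gp1bb, which is part of the platelet receptor of von Willebrand factor, was at 0.883 and 1.45 CPM in HE1 and at 1.83 and 1.56 CPM in HE2 and was not called. Of the list, 12 genes were called when HE1 replicate 2 was left out.

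Of the erythroid genes 15 of 26 were higher and 0 lower (median 1.93). The embryonic globin gene Hbb-bh1, the member with most counts, was at 279 and 136 CPM in HE1 and at 1225 and 1063 CPM in HE2. It was thus present in the CD41-negative population and had a log2 fold change of 2.46 ± 0.33 (adjusted p = 0.00254). Gata1 was at 5.55 and 2.41 CPM in HE1 and at 24.5 and 38.5 CPM in HE2, and its partner in red cell genes, Klf1, at 3.70 and 2.87 CPM and then 13.9 and 17.7 CPM. The adult globin gene Hba-a2 was at 0.168 and 0.694 CPM in HE1 and at 1.55 and 3.21 CPM in HE2. Its call was lost with limma-voom, total counts, only the 4 libraries, and a replicate block. When a library was left out, its log2 fold change ranged from 1.80 to 3.79. Reads of Hba-a1 and Hba-a2 are hard to separate because their sequences are nearly the same. Of the 26, 8 were called without HE1 replicate 2.

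The myeloid effector genes were called higher in 14 of 23 cases and lower in 0 (median 2.07, or 1.93 with the bound). Mpo, the gene of the neutrophil enzyme myeloperoxidase, was at 6.90 and 1.42 CPM in HE1 and at 61.5 and 148 CPM in HE2. Tyrobp, an adaptor of activating receptors, was at 0.168 and 0.132 CPM in HE1 and at 3.38 and 4.79 CPM in HE2. Itgam, which encodes CD11b, was at 0.883 and 0.561 CPM in HE1 and at 6.92 and 7.87 CPM in HE2. HE2 thus carried transcripts of more than 1 blood lineage. Ms4a3 had no count in HE1 and reached 0.335 and 0.381 CPM in HE2, close to the floor, and its call was lost without any library of HE2 or HP or HE1 replicate 2. Leaving out HE1 replicate 2 gave 10 of the 23.

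Markers of mature cells were at low levels. For macrophages, 0 of 7 tested markers were called, the list summed to 52.2 and 29.7 CPM in HE1 and 31.7 and 23.6 CPM in HE2, Mrc1 was its most abundant gene, and C1qa, Cd163, Marco, and Timd4 were at or under the floor. The mast cell markers summed to 1.89 and 1.45 CPM in HE1 and to 3.02 and 4.10 CPM in HE2. In that list 8 of 11 genes were at or under the floor, among them Cma1 and Fcer1a, and of 2 tested genes 1 was higher, Cpa3, the most abundant gene, with 1.80 and 3.05 CPM in HE2. The lymphoid markers summed to 16.4 and 13.9 CPM in HE1 and to 11.9 and 10.4 CPM in HE2, with Ebf1 as the most abundant gene and Rag1, Rag2, Cd3e, Cd3g, and Il2ra at or under the floor. Il7r was the 1 higher gene among 7 tested, at 0.396 and 1.68 CPM in HE2. With HE1 replicate 2 left out, 0 mast cell and 0 lymphoid markers and 1 macrophage marker, higher in HE2, were called by edgeR. The macrophage markers had a median log2 fold change of 1.43, and DESeq2 called 2 of them higher.

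**Figure D3:**
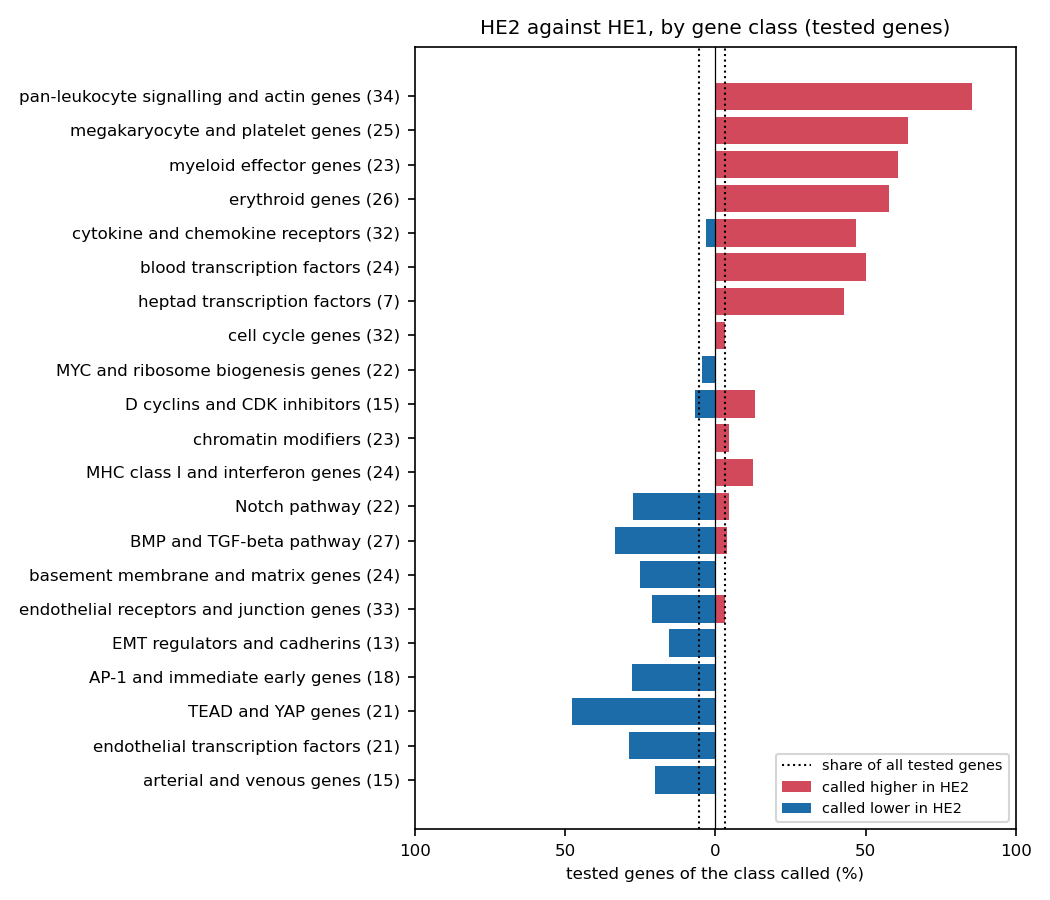
Share of the tested genes of each class that were called higher (right) or lower (left) in HE2 than in HE1, in percent, with the number of tested genes in brackets and the share over all tested genes as dotted lines (3.26% and 5.39%). The pan-leukocyte class reaches 85.3% on the right and the TEAD and YAP class 47.6% on the left. The lists were chosen with earlier results of these data known.

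The TEAD and YAP genes were a class with genes that were lower in HE2. TEAD factors bind DNA, and YAP and TAZ are the coactivators that reach the nucleus in spread, adherent cells. Of 21 tested genes 10 were lower and 0 higher, with a median log2 fold change of −1.09. Tead1 was at 262 and 271 CPM in HE1 and at 131 and 86.6 CPM in HE2 (log2 fold change −1.29 ± 0.18, adjusted p = 0.00320). Amotl1, which encodes a junction protein that binds YAP, was at 259 and 217 CPM in HE1 and at 94.4 and 31.1 CPM in HE2. Yap1 itself was at 247 and 204 CPM in HE1 and at 123 and 69.9 CPM in HE2. For each of these 3 genes the HE1 libraries lay close together and above both HE2 libraries. Tead1 was called under each alternative with the 2-fold threshold. The genes Lats2 and Tead4 had log2 fold changes of −1.31 and −1.29. For Lats2, 42.4% of the exon bases are shared with another annotated gene. Amotl2, the member with most counts, was at 467 and 420 CPM in HE1 and at 283 and 155 CPM in HE2. Without HE1 replicate 2, 5 of the 21 genes were lower with a median of −1.02, and without HE2 replicate 2, 2 were.

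Of 33 tested endothelial receptor and junction genes, 7 were lower and 1 was higher, with a median of −0.94. The list holds the sort antigen gene Tek, which was not called. Kdr, the VEGF receptor gene with most counts, was at 1265 and 718 CPM in HE1 and at 926 and 630 CPM in HE2, and the libraries of the populations overlapped. Cdh5 (log2 fold change −0.81 ± 0.37, adjusted p = 0.145) and Pecam1 (−0.59 ± 0.22, adjusted p = 0.0954) were not called either. Tie1 was at 673 and 370 CPM in HE1 and at 552 and 412 CPM in HE2. The protease gene Ece1 was at 347 and 206 CPM in HE1 and at 127 and 75.8 CPM in HE2, and Egfl7, which encodes a secreted endothelial protein, at 451 and 629 CPM and then 279 and 119 CPM. Mcam and Angpt2 had log2 fold changes of −1.72 and −2.58. Cd34, a surface antigen of endothelium and blood progenitors, was the 1 gene higher, with 255 and 225 CPM in HE1 and 539 CPM in both HE2 libraries. The number of lower genes was 4 without HE1 replicate 2 with a median of −1.15, 1 without HE2 replicate 2, and 27 without HE2 replicate 1. The number of calls in this class thus depended on which HE2 library was used.

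Endothelial transcription factor genes were lower in 6 of 21 cases and higher in 0 (median −1.28). The number lower was 10 with limma-voom and 2 with a replicate block. The median was −1.75 without HE2 replicate 1 and −0.81 without HE1 replicate 1. Sox17, an arterial factor, was at 96.3 and 77.3 CPM in HE1 and at 31.0 and 8.38 CPM in HE2. Ets1, the member with most counts, was at 565 and 442 CPM in HE1 and at 338 and 159 CPM in HE2, close to the 2-fold threshold (log2 fold change −1.02 ± 0.29, adjusted p = 0.0441). Hey2, a target of Notch, was at 21.6 and 13.1 CPM in HE1 and at 6.67 and 2.51 CPM in HE2. Tal2 (log2 fold change −1.81) was under 1.2 CPM in all 4 libraries. The gene Sox18 was at 110 and 60.1 CPM in HE1 and at 92.0 and 44.9 CPM in HE2, and Sox7 at 161 and 87.7 CPM and then 54.0 and 13.8 CPM, and neither was called. Without HE1 replicate 2, 1 of 21 was lower with a median of −1.60, and without HE2 replicate 2, 0 were by edgeR.

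The arterial and venous genes were lower in 3 of 15 cases and higher in 0 (median −1.42). With limma-voom 5 were lower. The median was −2.14 without HE2 replicate 1 and −0.97 without HE1 replicate 1. Efnb2, the arterial ephrin gene, was at 250 and 223 CPM in HE1 and at 106 and 37.7 CPM in HE2, and the netrin receptor gene Unc5b at 434 and 463 CPM and then 224 and 63.2 CPM. Nrp2, the member with most counts and a marker of veins, had a log2 fold change of −1.02 that missed the test (adjusted p = 0.0532). Of 22 Notch pathway genes, 6 were lower and 1 higher (median −0.66). Notch1 was at 655 and 465 CPM in HE1 and at 323 and 158 CPM in HE2, Jag2 at 61.1 and 66.5 CPM and then 38.0 and 13.7 CPM, and Dll1 was under 4.1 CPM in each library. Mfng, a glycosyltransferase gene that modifies Notch, went the other way, from 8.62 and 14.6 CPM in HE1 to 34.8 and 37.2 CPM in HE2 (log2 fold change 1.63 ± 0.36, adjusted p = 0.0221), and lost its call without HE2 replicate 2. Dll4, the arterial ligand gene, was at 7.28 and 7.46 CPM in HE1 and at 2.80 and 0.857 CPM in HE2 and did not pass the test. When HE1 replicate 2 was left out, edgeR called 0 arterial and venous genes and 1 Notch pathway gene lower, with medians of −1.60 and −0.63.

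Of 27 BMP and TGF-beta pathway genes, 9 were lower and 1 higher (median −0.77). Bmp6, a ligand gene, was at 194 and 182 CPM in HE1 and at 63.2 and 13.6 CPM in HE2. The inhibitory factor genes Smad6 and Smad7 were also lower, Smad7 with 263 and 254 CPM in HE1 and 137 and 61.9 CPM in HE2. Smad9 and Id4 had log2 fold changes of −1.74 and −1.61. Tgfb1 rose from 93.4 and 75.1 CPM in HE1 to 191 and 292 CPM in HE2 (log2 fold change 1.52 ± 0.22, adjusted p = 0.00359) and was called under each alternative with the 2-fold threshold. Eng, the coreceptor gene with most counts, was at 624 and 362 CPM in HE1 and at 365 and 199 CPM in HE2 and was not called. Of the 27 genes, 2 were lower and Tgfb1 was higher without HE1 replicate 2.

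The AP-1 and immediate early genes were lower in 5 of 18 cases and higher in 0 (median −1.05, or −0.57 without HE1 replicate 2, when 0 were called by edgeR). Fosl2, which encodes an AP-1 subunit, was at 104 and 146 CPM in HE1 and at 66.9 and 39.6 CPM in HE2, Maff at 25.7 and 27.3 CPM and then 12.6 and 5.21 CPM, and Nr4a1 at 31.3 and 27.0 CPM and then 16.0 and 5.59 CPM. The main AP-1 genes did not pass the test. Jun, with most counts, was at 266 and 182 CPM in HE1 and at 227 and 149 CPM in HE2, and Fos at 29.8 and 21.1 CPM and then 23.6 and 13.5 CPM. For Egr3 the call rested on HE1 replicate 2, with 1.60 and 10.4 CPM in HE1 and a log2 fold change that went from −2.55 to −0.64 without this library (adjusted p = 0.438).

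Matrix genes were lower in 6 of 24 cases and higher in 0 (median −0.88). Fbn1, which encodes fibrillin, was at 1207 and 759 CPM in HE1 and at 453 and 211 CPM in HE2, and Nid1, a basement membrane gene, at 668 and 652 CPM and then 377 and 131 CPM. Lama5 and Col5a2 had log2 fold changes of −1.38 and −1.20. Fn1, the fibronectin gene and the member with most counts, was at 6907 and 3776 CPM in HE1 and at 5724 and 3841 CPM in HE2, so that the populations overlapped. Of 13 EMT regulators and cadherins, 2 were lower and 0 higher (median −0.96), namely Cdh2 with 144 and 249 CPM in HE1 and 90.7 and 44.2 CPM in HE2, and Snai1 with 6.06 and 6.94 CPM and then 3.41 and 2.63 CPM. Zeb2 was between 222 and 266 CPM in all 4 libraries, and Vim, with most counts, had a log2 fold change of −0.75 that missed the test (adjusted p = 0.0655). Without HE1 replicate 2, 0 genes of either list were called lower by edgeR, with medians of −0.93 and −0.99. The matrix median was −0.38 when HE2 replicate 2 was left out, and 18 of 24 matrix and 7 of 13 EMT genes were lower when HE2 replicate 1 was left out. With HE2 replicate 2 left out, edgeR called 0 matrix, EMT, Notch, and BMP and TGF-beta genes lower, and 1 gene each of the arterial and venous and the AP-1 lists. Among the lower genes chosen by the rule for named genes, Cdh13, B830012L14Rik, Adrb3, and Tead1 were called under each alternative with the 2-fold threshold. B830012L14Rik was at 34.8 and 38.3 CPM in HE1 and at 10.1 and 5.27 CPM in HE2. It shares 815 exon bases (6.98% of its own) with Gm37899, at 35.2 and 37.9 CPM and then 13.6 and 5.59 CPM. Whether their counts are separate measurements was not tested.

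Each of the 32 tested cell cycle genes had a positive log2 fold change (median 0.71), but 1 was called higher, a share of 3.12% that is close to the background. It was E2f2, with 15.5 and 11.2 CPM in HE1 and 34.4 and 45.7 CPM in HE2. Top2a, with most counts, was at 727 and 494 CPM in HE1 and at 920 and 1197 CPM in HE2, less than 2-fold apart. When HE1 replicate 1 or HE2 replicate 1 was left out, 12 of the 32 were called. In the list of D cyclins and CDK inhibitors, 2 of 15 were higher, Cdkn2d and Rbl1, and 1 was lower. The share lower of 6.67% is close to the 5.39% of all tested genes. Neither higher call held when HE1 replicate 2 was left out (0 by edgeR), and the lower call was lost without HE2 replicate 2. The lower gene was Cdkn1c, the p57 inhibitor gene, with 40.4 and 49.7 CPM in HE1 and 17.6 and 10.3 CPM in HE2 (log2 fold change −1.69 ± 0.29, adjusted p = 0.00810). Ccnd3 was at 270 and 215 CPM in HE1 and at 426 and 510 CPM in HE2, just under the 2-fold threshold (log2 fold change 0.95). Of the 22 MYC and ribosome biogenesis genes, 1 was lower, Mycl, and 0 were higher (median 0.45). The share lower of 4.55% is close to the 5.39% of all tested genes. The call of Mycl was lost with HE1 replicate 2 left out. Npm1, their most abundant member, had a log2 fold change of 0.60 (adjusted p = 0.107).

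Of the 24 MHC class I and interferon genes, 3 were higher and 0 lower (median −0.01). H2-T23 and Ifih1 had log2 fold changes of 1.88 and 1.03, and neither was called without HE1 replicate 2 or without HE2 replicate 2. B2m, with most counts, was at 62.8 and 48.7 CPM in HE1 and at 56.2 and 48.5 CPM in HE2. Of 23 chromatin modifiers 1 was higher, a share of 4.35% that is close to the 3.26% of all tested genes. It was the DNA methyltransferase gene Dnmt3b, with 63.2 and 74.2 CPM in HE1 and 127 and 323 CPM in HE2. Its call was lost without HE1 replicate 2. Kmt2d, with most counts, was between 476 and 525 CPM in the 4 libraries.

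The step from HE1 to HE2 was set beside the next step in the study's order of stages, from HE2 to HP. These comparisons share the HE2 libraries. HE1, HE2, and HP cells were sorted by surface antigens after the same culture times. The steps thus compare sorted populations, and the timing of the changes was not measured. With edgeR, HP held 0 higher genes (0%) and 0 lower genes (0%) relative to HE2, while 670 and 1113 differed at an unadjusted p under 0.05. limma-voom called 35 and 27 genes, and DESeq2 called 108 and 193. From HE1 to HP, 1210 genes were higher (5.35%) and 2525 lower (11.2%). The 737 genes higher in HE2 had a median log2 fold change of 2.02 from HE1 to HE2 and of 0.45 from HE2 to HP. For the 1217 lower genes the medians were −1.83 and −0.23. The second medians are a description, since the genes were chosen by a high or low HE2.

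The medians of the classes at the 2 steps are given side by side, and their difference was not tested for a class. The pan-leukocyte genes had medians of 2.59 and then 0.94, the megakaryocyte genes of 2.17 and 0.21, the erythroid genes of 1.93 and 0.91, the myeloid genes of 2.07 and 1.03, and the blood transcription factors of 1.05 and 0.41. For the TEAD and YAP genes the medians were −1.09 and −0.29. The endothelial receptor and junction genes had a median of −0.94 at the first step and of −1.45 at the second. This order depended on the HE2 library, with −1.59 and −0.82 when HE2 replicate 1 was left out and −0.47 and −1.99 when HE2 replicate 2 was left out. Endothelial transcription factors were at −1.28 and −1.11 (−1.75 and −0.55 without HE2 replicate 1, −0.88 and −1.60 without HE2 replicate 2). Matrix genes were at −0.88 and −0.86 (−1.51 and −0.23, then −0.38 and −1.32). Cdh5 was at 862 and 412 CPM in HE2 and at 118 and 179 CPM in HP. The larger step was thus not settled for the endothelial receptors, a class that TIE2 belongs to, the endothelial transcription factors, or the matrix genes. When HE2 replicate 2 was left out the order also turned for the arterial and venous genes (−1.42 and −1.19 to −0.88 and −1.69), the BMP and TGF-beta pathway (−0.77 and −0.63 to −0.54 and −0.84), and the Notch pathway (−0.66 and −0.29 to −0.42 and −0.55), and the EMT medians became equal (−0.71). Without HE1 replicate 1 it turned for the arterial and venous genes (−0.97 and −1.18) and the BMP and TGF-beta pathway (−0.49 and −0.62). The same setting gave −0.81 and −1.11 for the endothelial transcription factors. The D cyclin, MYC, interferon, and chromatin classes lost or changed their order too when 1 library was left out. The blood classes above and the TEAD and YAP class had the larger median at the gain of CD41. With HE2 replicate 2 left out the gap was small for the blood transcription factors (0.90 and 0.86) and for the TEAD and YAP genes (−0.74 and −0.55). With HE2 replicate 1 left out it narrowed for the erythroid genes (1.56 and 1.28).

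**Figure D4:**
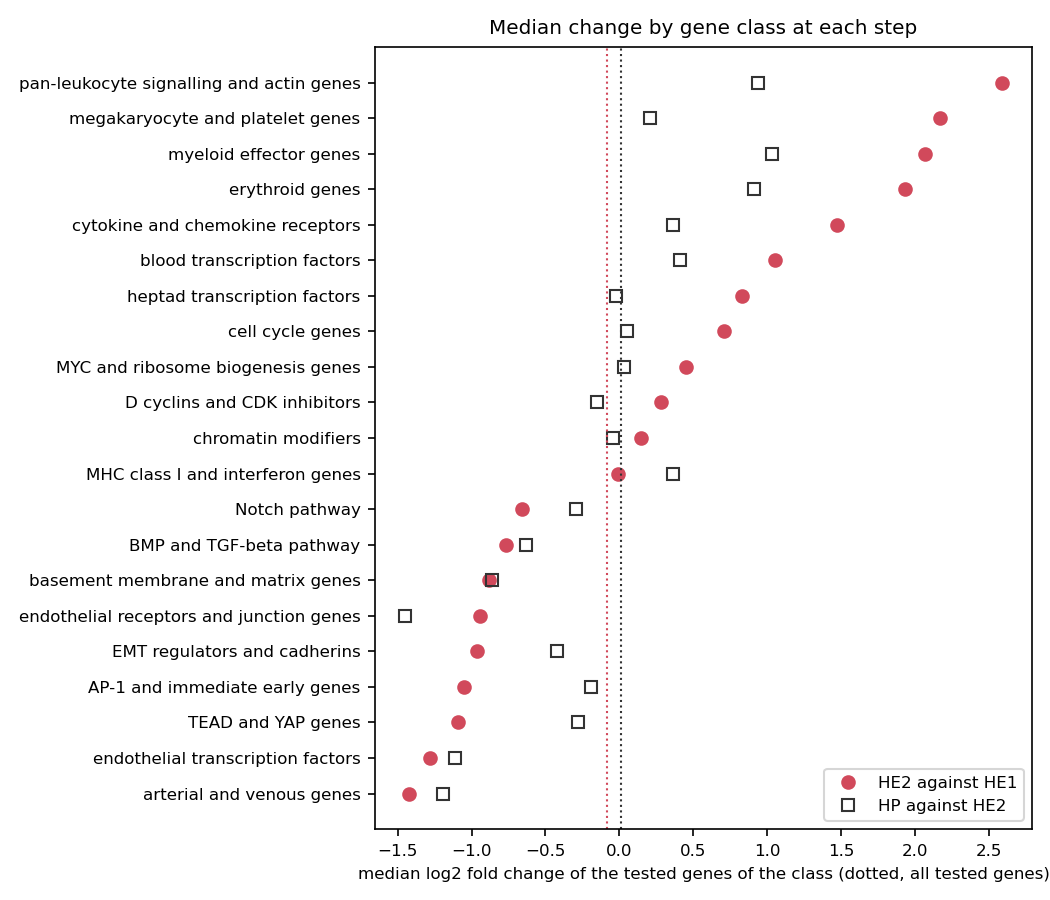
Median log2 fold change of the tested genes of each class from HE1 to HE2 (filled circles) and from HE2 to HP (open squares), with the medians over all tested genes as dotted lines (−0.08 and 0.01). The circle of the pan-leukocyte genes is at 2.59 and their square at 0.94, while for the endothelial receptor and junction genes the square is at −1.45 and the circle at −0.94 (−0.82 and −1.59 without HE2 replicate 1). The order of circle and square in several classes depends on the libraries used, as given in the text.

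Whether HE2 lay off the midpoint of HE1 and HP on the log2 scale was tested for each gene in the same model. For a gene that changes in the same direction at both steps, this compares the steps. For a gene that changes in opposite directions, it adds the sizes of both changes and does not compare them. This test was chosen after seeing the data. HE2 was above the midpoint for 13 genes (0.0575%) and below it for 0 genes (0%) by edgeR, with 1015 and 1016 at an unadjusted p under 0.05. The 13 included 3 of the pan-leukocyte genes, 2 of the megakaryocyte and platelet genes, and 1 cytokine receptor gene. They were Plek, Itgb3, Adgrg3, Inpp5d, Epha7, P2ry1, Csf3r, Pla2g4a, Evi2, Sla, Ubash3a, Rasal3, and Myom1. Among them, Epha7, P2ry1, and Inpp5d had opposite signs at the steps. Their log2 fold changes were 1.90, 1.72, and 2.03 from HE1 to HE2 and −0.45, −0.40, and −0.01 from HE2 to HP. Plek, which encodes the platelet protein pleckstrin, was at 29.9 and 17.1 CPM in HE1, 383 and 538 CPM in HE2, and 699 and 549 CPM in HP (adjusted p = 0.0200 for the midpoint). Itgb3 was at 1573 and 1139 CPM in HP, and HE2 overlapped these values. Inpp5d, the gene of the phosphatase SHIP1, was at 43.6 and 37.6 CPM in HE1, 147 and 184 CPM in HE2, and 175 and 154 CPM in HP. Without HP replicate 1, or without HP replicate 2, 0 genes passed this test by edgeR, and without HE1 replicate 2 there were 2 and without HE2 replicate 2 there was 1. limma-voom called 16 genes above and 0 below the midpoint, and DESeq2 called 173 above and 30 below. By edgeR with all libraries, no other gene, the endothelial receptors included, was called off the midpoint.

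Promoters of the changed genes were searched for motifs of factors in these classes, as a description and with no test. Windows of 300 bases around the start were taken from RefSeq (GRCm38.p6) for 13035 of the 22596 tested genes, 532 of the higher and 739 of the lower ones, and each motif was read on both strands. The PU.1 core GAGGAA was in 34.6% of 705 windows of higher genes, 26.7% of 983 windows of lower genes, and 27.1% of all 16556 windows. The GATA motif AGATAA was in 12.5%, 6.82%, and 7.12%, and the RUNX motifs TGTGGT or TGCGGT in 25.4%, 20.7%, and 20.9%. An E-box (CAGCTG or CATCTG) was in 31.2%, 29.7%, and 26.3%. The TEAD motif GGAATG was in 11.5%, 13.5%, and 12.8%, and the AP-1 motifs TGACTCA or TGAGTCA in 3.55%, 4.07%, and 4.03%. A match is a sequence description and does not show binding.

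The sequences before the RefSeq start of marker genes are printed because these genes mark the CD41+ population and were called higher in it. Capitals mark the motifs above, and each is written 5′ to 3′ on the strand of its gene. The Itga2b window (chr11:102469884-102470133, minus strand) holds the PU.1 core 2 times and an E-box 1 time. RefSeq starts differ from the ends of the gene coordinates given above, and 239 of the 250 bases of this window lie inside those of Itga2b.
Itga2b: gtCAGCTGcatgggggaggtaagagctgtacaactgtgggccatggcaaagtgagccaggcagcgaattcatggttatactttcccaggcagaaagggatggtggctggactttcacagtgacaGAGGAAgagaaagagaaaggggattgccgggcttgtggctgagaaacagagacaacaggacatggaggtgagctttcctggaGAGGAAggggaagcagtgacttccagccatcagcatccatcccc
Runx1 has a distal start (chr16:92826075-92826324, minus strand), whose window holds none of the motifs, and a proximal start (chr16:92697330-92697579, minus strand), with 1 TEAD motif and 1 PU.1 core on the reverse strand. Of the 250 bases, 75 and 250 lie inside the gene coordinates of Runx1.
Runx1 distal: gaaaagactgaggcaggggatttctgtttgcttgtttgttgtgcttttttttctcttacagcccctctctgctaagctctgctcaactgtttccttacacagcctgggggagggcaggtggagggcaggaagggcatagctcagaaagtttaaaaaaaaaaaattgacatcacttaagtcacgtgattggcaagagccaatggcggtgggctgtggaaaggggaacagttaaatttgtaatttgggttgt
Runx1 proximal: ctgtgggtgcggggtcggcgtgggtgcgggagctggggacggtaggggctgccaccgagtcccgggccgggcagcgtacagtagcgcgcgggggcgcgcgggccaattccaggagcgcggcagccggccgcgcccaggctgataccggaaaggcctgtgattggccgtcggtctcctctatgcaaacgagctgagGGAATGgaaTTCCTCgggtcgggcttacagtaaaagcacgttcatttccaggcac
The Fgl2 window (chr5:21372423-21372672, plus strand) holds 1 AP-1 motif, and 31 of its bases lie inside the gene coordinates.
Fgl2: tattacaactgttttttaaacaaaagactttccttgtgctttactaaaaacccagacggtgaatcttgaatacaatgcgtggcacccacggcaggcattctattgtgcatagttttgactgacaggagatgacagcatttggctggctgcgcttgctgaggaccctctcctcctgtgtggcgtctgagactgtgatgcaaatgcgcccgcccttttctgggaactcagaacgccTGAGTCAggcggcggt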

How the data were processed

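The deposited raw counts per gene and library were used. Per the file headers and labels, the authors removed rRNA reads with RiboDetector, trimmed with Trimmomatic, used HISAT2 (v2.2.1) for alignment to mm10, and counted read pairs as fragments on Ensembl genes with featureCounts (v2.0.1), reverse-stranded, with a fragment on several genes counted on each. The authors' matrix of stage means was not used. Of 55487 genes, 22596 passed filterByExpr. Counts were scaled with TMM and fitted with edgeR (v4.0.16, R v4.3.3) with stage as the only term over all 10 libraries (quasi-likelihood F test, Benjamini-Hochberg adjustment, prior count 2). The model was tested on simulated data. Alternatives were limma-voom (v3.58.1), DESeq2 (v1.42.0), total counts, no filter, only the stages compared, a replicate block, a 4-fold threshold, 9 CPM in each library, and each HE1, HE2, and HP library left out, where the lone library is assumed to vary like the other stages. The test against the midpoint was chosen after seeing the data. Members and lists were chosen with earlier results of these data known. Genes were named by this rule: sort antigens and markers, the 12 widest gaps between libraries in each direction with at least 9 CPM, and in each list up to 4 called genes with the largest change and the gene with most counts. Other genes were named after their values were seen.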

Additional observations from a re-analysis of the deposited data

How the results depend on the processing

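Genes higher in HE2 than in HE1 numbered 364 with only the 4 libraries compared, 372 at 4-fold, and 324 to 1368 when 1 library was left out. Lower genes numbered 2864 without a filter on low counts, 171 with only the 4 libraries, 766 with a replicate block, 529 at 4-fold, and 98 to 2927 when 1 library was left out. Higher genes made up 37.7% of all calls, 68.0% with only the 4 libraries, and 76.8% without HE2 replicate 2. Genes higher in HP than in HE2 numbered 35 with limma-voom, 108 with DESeq2, 145 without a filter, and 0 to 50 when 1 library was left out, and lower genes 27, 193, 389, and 0 to 475. At 4-fold, 671 counted as genes higher in HP than in HE1 and 1415 as genes lower in HP than in HE1, with 770 to 1777 and 1135 to 3684 when 1 library was left out. Genes above the midpoint numbered 173 with DESeq2, 6 with total counts, 399 without a filter, 7 with only the stages compared, 3 with the block, and 0 to 201 when 1 library was left out. Genes below it numbered 30 with DESeq2, 330 without a filter, and 0 to 171. Switched-on genes numbered 136 with only the 4 libraries, 109 at 4-fold, and 122 to 322 when 1 library was left out, and switched-off genes 316 without a filter, 36 with only the 4 libraries, 62 at 4-fold, 88 at 9 CPM in each library, and 19 to 465. The cause was not tested.

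Total counts without TMM moved the median log2 fold change of all tested genes from −0.08 to −0.17. No called gene chosen by the naming rule reversed its direction, while uncalled ones such as Kdr, Jun, Fn1, Fli1, and Gata2 did when a library was left out. Replicate numbers do not pair samples in the labels, and across genes the deviations of replicate 1 from replicate 2 correlated at −0.18 between HE1 and HE2 and between −0.32 and 0.21 over all pairs of stages after ES. Among the named genes 53 lost their call without HE1 replicate 2 and 55 without HE2 replicate 2, against 12 without HE1 replicate 1 and 3 without HE2 replicate 1. Of the list counts, 23 and 24 moved by more than 1.5 times without the former libraries. With only the bases before the start each of the 18 motif shares was smaller, 12 of them by more than the 95% binomial error of the share.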

Other observations

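In 4 genes both HE2 libraries were at 9 CPM or more and at least 1.5 times every HE1 and HP library. Cyp26b1, which encodes an enzyme that breaks down retinoic acid, was at 11.1 and 4.06 CPM in HE1, 28.1 and 45.6 CPM in HE2, and 12.3 and 6.99 CPM in HP. The potassium channel gene Kcnk9 was at 32.4 and 14.9 CPM in HE1, 89.6 and 62.5 CPM in HE2, and 20.5 and 17.0 CPM in HP. Pls1, an actin-bundling protein gene, was at 4.71 and 3.60 CPM in HE1 and at 11.2 and 15.2 CPM in HE2. These 3 genes were called higher in HE2 than in HE1. Lyve1, a receptor of lymphatic endothelium, was at 10.9 and 0.991 CPM in HE1 and at 22.4 and 22.2 CPM in HE2 and was not called (adjusted p = 0.107). The genes were picked by their values, and none of the 4 passed the test against the midpoint of HE1 and HP by edgeR (adjusted p from 0.0507 to 0.438).

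The annotation classes were counted against the 3.26% higher and 5.39% lower of all tested genes. Of 15825 protein coding genes, 673 were higher (4.25%) and 964 lower (6.09%), or 359 and 248 without HE1 replicate 2. Of 1322 genes of the annotation class TEC, 4 were higher (0.303%) and 95 lower (7.19%), and 2 were lower without HE1 replicate 2. Of 773 lincRNA genes 11 were higher and 27 lower (3.49%), and of 677 antisense genes 4 and 26 (3.84%). When HE1 replicate 2 was left out, edgeR called 2 lincRNA and 0 antisense genes lower.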
